A study of Danio rerio with 24 samples.

Results

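The zebrafish genes cyp2n13, cyp2p6, cyp2p7, cyp2p8, cyp2p9, cyp2p10, cyp2ad2, cyp2ad3, cyp2ad6 and cyp2v1 encode cytochrome P450 enzymes of the fish subfamilies CYP2N, CYP2P, CYP2AD and CYP2V. They were chosen by gene symbol and by presence in the deposited tables, with results of these libraries already known, and 10 of the 32520 genes in the tables carried a listed symbol. The rule names no contrast and no threshold, so p-values below are adjusted over all genes tested and no count of members is offered as independent evidence. RNA came from whole wildtype zebrafish exposed from 0.75 to 120 h after fertilization to PFHxS (perfluorohexane sulfonate, a perfluorinated surfactant) in 0.1% DMSO. The 6 groups of 4 libraries each were 0 (vehicle), 0.0025 and 25 µM in constant darkness and the same 3 doses under a light-dark cycle (14 h of light, 10 h of dark). The treatment text puts all samples in the dark, but 12 titles name the cycle, and groups follow the titles. Libraries of the different photoperiods belong to separate library series and were scaled in separate tables, so photoperiod and library series cannot be told apart. The sources used here do not give the larvae per library, their clutches or the hour of sampling, so p-values measure the spread between these libraries, which may be technical.

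Cytochrome P450 enzymes of family 2 are haem proteins of the endoplasmic reticulum. They insert oxygen into fatty acids, steroids and foreign compounds, with electrons delivered by cytochrome P450 oxidoreductase. Human CYP2J2, the closest characterised human relative of this group, converts arachidonic acid to epoxides that act on vessels and ion transport, and CYP2N and CYP2P enzymes of killifish oxidise the same fatty acid. The annotation in the tables names rat CYP2J4 as the matching protein for cyp2n13, cyp2p6, cyp2p7 and cyp2p9, and human CYP2J2 for the other members.

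All 10 genes lay on chromosome 20, between 25515259 and 25615727 (coordinates as in the tables, whose build the sources used here do not give), a stretch of 100.5 kb. Another 4 annotated genes lay in this stretch or overlapped it, among them cyp2j20. The gene cyp2n13 stood at one end (25515259 to 25522911, minus strand), next to hook1, an adaptor of microtubule motors. It was followed by cyp2ad6 (25525802 to 25533739), cyp2ad2 (25534669 to 25542183) and cyp2ad3 (25548425 to 25551676), all on the minus strand. On the plus strand, cyp2v1 (25533064 to 25558418) ran across the CYP2AD genes, overlapping cyp2ad2 and cyp2ad3 over their whole annotated length of 7515 and 3252 bp and cyp2ad6 over 676 bp. The CYP2P genes filled the other end on the plus strand: cyp2p6 (25563105 to 25568441), cyp2p8 (25575391 to 25580002), cyp2p9 (25581627 to 25584869) and cyp2p10 (25586099 to 25593607). The annotated span of cyp2p7 (25568694 to 25615727) enclosed cyp2p8, cyp2p9 and cyp2p10 and overlapped cyp2j20 by 18201 bp. The sources used here do not give the strand setting of the counting, and the members are close paralogs, so fragments shared between overlapping or similar members cannot be told apart.

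**Figure D1:**
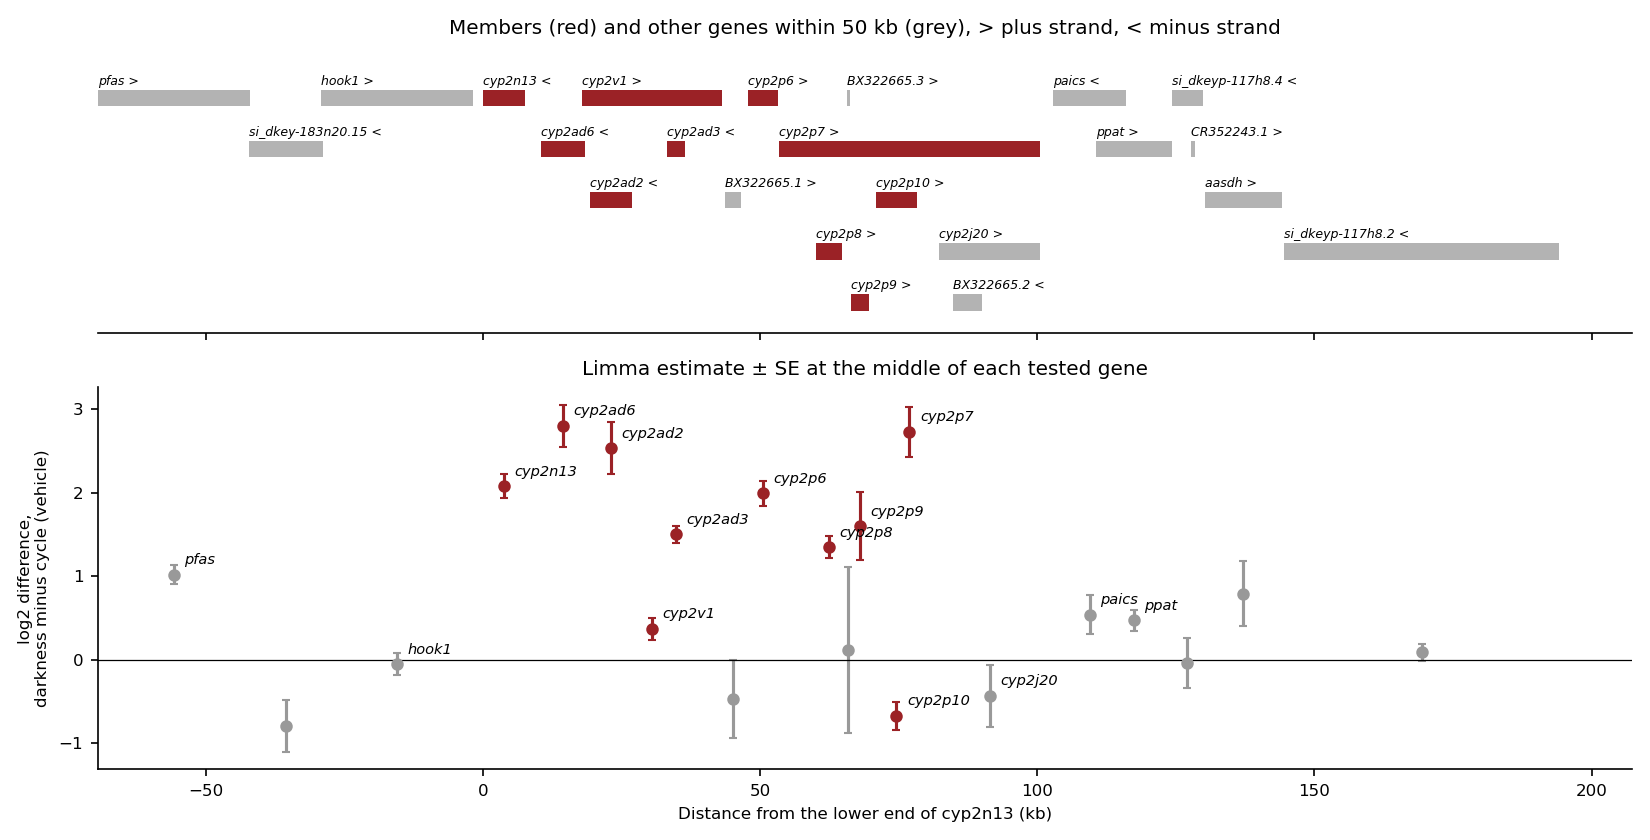
Gene map of the cluster and the difference between photoperiods in vehicle larvae, plotted against distance from the lower end of cyp2n13 in kb. The upper panel shows annotated spans with strands, and the lower panel shows the limma log2 difference, darkness minus cycle, with its standard error for each tested gene. Of the red points, 8 lie above 1, cyp2v1 lies at 0.37 and cyp2p10 at -0.67.

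Depth ran from 8.44 to 14.5 M fragments in dark libraries and from 10.1 to 18.5 M in cycle libraries (M, mega). Every member passed the filter on low values (at least 0.5 FPKM, fragments per kilobase of gene, scaled for library size, in at least 4 libraries) in each fit. The fragments behind a value differed widely: cyp2ad3 had 489 to 2272 per library, while cyp2p7 had 55 to 171 in dark libraries and 6 to 29 in cycle libraries.

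Darkness and the cycle were compared first in vehicle larvae, to see how the cluster stood without PFHxS. Of the 10 genes, 8 were higher in darkness (limma, adjusted p under 0.05), 1 was lower and 1 did not pass. Across all 20145 genes tested, 20.1% passed, 9.24% higher and 10.8% lower; that split of 1862 higher and 2185 lower became 2514 and 1546 when libraries were scaled to total fragments. The 8 members each passed and were at least 2-fold higher, and 3.23% of all genes tested met both conditions. The planned test had no fold minimum, and the 2-fold condition was added for this description only. The median of the 10 log2 differences was 1.80, against -0.02 over all genes tested. Because photoperiod and library series coincide, none of these values separates light from library series.

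The CYP2AD genes held both the most abundant member and some of the widest differences. FPKM of cyp2ad6 was 8.62, 11.5, 12.4 and 7.73 in dark vehicle libraries, against 1.28, 1.01, 1.42 and 1.72 in cycle vehicle libraries. FPKM of cyp2ad2 was 46.4, 43.3, 44.4 and 49.6 in dark vehicle libraries, against 7.47, 8.54, 6.43 and 9.42 in cycle vehicle libraries. In both genes every dark library was several times above every cycle library, with log2 differences of 2.80 ± 0.25 for cyp2ad6 (SE, limma adjusted p = 7.01e-08) and 2.53 ± 0.31 for cyp2ad2 (adjusted p = 5.35e-06). The most abundant member, cyp2ad3, had 68.8, 65.4, 73.4 and 68.1 FPKM in dark vehicle libraries, against 24.3, 29.0, 23.6 and 21.0 in cycle vehicle libraries. Its groups did not overlap either, and its log2 difference of 1.50 ± 0.099 had an adjusted p of 3.86e-10 in limma.

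The gene cyp2n13, the single CYP2N member, had 39.5, 44.8, 42.5 and 43.7 FPKM in dark vehicle libraries, against 11.2, 11.6, 8.35 and 9.23 in cycle vehicle libraries. The dark libraries stood about 4 times above the cycle libraries with little spread (log2 difference 2.08 ± 0.14, limma adjusted p = 5.35e-10). The gene cyp2v1, which shares its locus with the CYP2AD genes on the opposite strand, was the member that did not pass. It had 12.7, 15.4, 16.1 and 15.2 FPKM in dark vehicle libraries, against 13.4, 8.67, 12.9 and 11.5 in cycle vehicle libraries. These groups overlapped, and the log2 difference of 0.37 ± 0.13 had an adjusted p of 0.0556 in limma, with 0.0233 to 0.213 over 32 alternatives, 8 of which put it past the threshold.

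Among the CYP2P genes, 4 were higher in darkness and cyp2p10 was lower. FPKM of cyp2p7 was 2.76, 5.31, 4.90 and 4.34 in dark vehicle libraries, against 0.784, 0.346, 0.435 and 0.749 in cycle vehicle libraries (log2 difference 2.73 ± 0.30, limma adjusted p = 1.15e-06). FPKM of cyp2p6 was 10.9, 9.88, 11.4 and 10.6 in dark vehicle libraries, against 2.84, 2.21, 2.98 and 2.47 in cycle vehicle libraries (1.99 ± 0.15, adjusted p = 2.97e-09). Both genes had every dark library above every cycle library, although cyp2p7 rested on few fragments under the cycle. The groups were also apart for cyp2p8, at 35.8, 41.6, 37.5 and 35.1 FPKM in dark vehicle libraries, against 11.6, 17.2, 14.3 and 16.0 in cycle vehicle libraries (1.35 ± 0.13, adjusted p = 2.46e-07). For cyp2p9 the values were 14.7, 5.15, 8.11 and 9.40 FPKM in dark vehicle libraries, against 3.87, 2.79, 4.47 and 1.26 in cycle vehicle libraries (1.60 ± 0.41, adjusted p = 0.00872). The spread of cyp2p9 within each group was wide, with the highest dark library 2.85 times the lowest, yet the groups did not overlap.

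The gene cyp2p10 lies inside the annotated span of cyp2p7 and went the other way. It had 5.36, 3.22, 3.58 and 4.92 FPKM in dark vehicle libraries, against 6.78, 7.14, 5.23 and 8.09 in cycle vehicle libraries. One dark library exceeded one cycle library, and the log2 difference was -0.67 ± 0.17 (SE, limma adjusted p = 0.00785). At 0.0025 and 25 µM all 4 dark libraries were below all 4 cycle libraries for this gene, with means in darkness of 0.602 and 0.592 times those under the cycle.

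**Figure D2:**
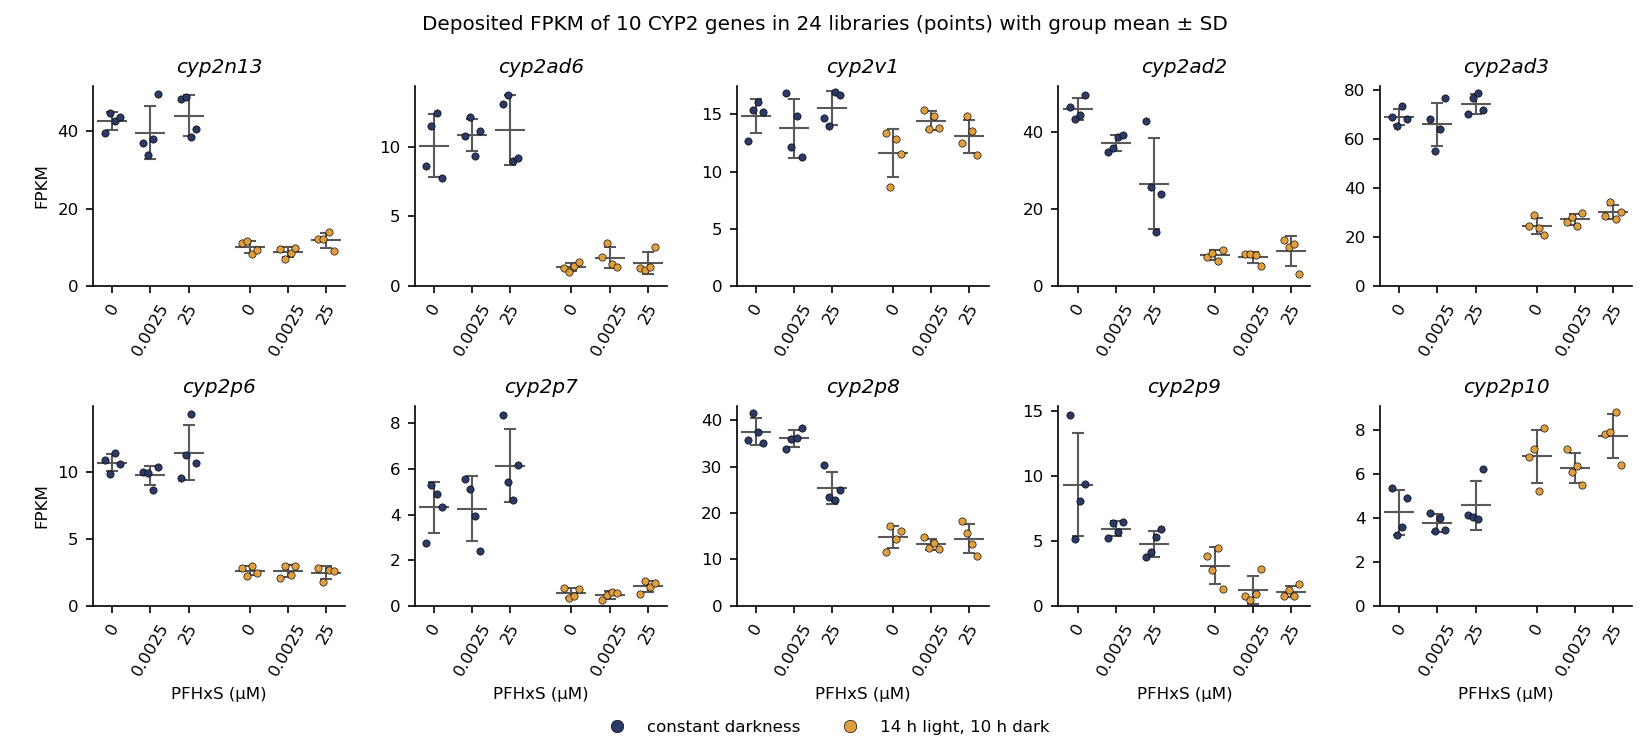
Deposited FPKM of each of the 10 genes in all 24 libraries, by PFHxS dose in µM, with constant darkness to the left of the light-dark cycle. Points are libraries and bars are the group mean ± SD (n = 4); scales differ between panels. Dark points stand above all cycle points in 7 panels, overlap them in cyp2v1 and cyp2p9, and lie mostly below them in cyp2p10.

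The separation held at every dose. All 12 dark libraries were above all 12 cycle libraries for cyp2n13, cyp2p6, cyp2p7, cyp2p8, cyp2ad2, cyp2ad3 and cyp2ad6, which is 7 of 10 members, against 1.77% of all genes tested. Within vehicle larvae 8 of 10 had their 4 dark libraries above the 4 cycle libraries, which 11.9% of all genes tested had. The same 8 members were above at each of the other doses. The share of all genes was not computed at those doses, so that count only describes the members. The ratio of means, darkness over cycle, was 7.48 for cyp2p7 in vehicle larvae, 8.99 at 0.0025 µM and 7.21 at 25 µM. For cyp2ad2 it was 5.77 in vehicle larvae, 4.99 at 0.0025 µM and 2.96 at 25 µM, and the test of that change with dose is given below. The ratio for cyp2p8 was 2.53 in vehicle larvae, 2.72 at 0.0025 µM and 1.75 at 25 µM. In cyp2v1 the ratio stayed near 1, at 1.28, 0.953 and 1.19 for the doses in rising order, and its groups overlapped each time.

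The summed FPKM of the 10 genes was 248.5 ± 4.2 in dark vehicle larvae and 83.4 ± 3.72 in cycle vehicle larvae (SD, n = 4 each). The make-up of that sum differed as well. The gene cyp2ad3 gave 27.7% of the sum in darkness and 29.3% under the cycle in vehicle larvae, and was the most abundant member in both. The share of cyp2ad2 was 18.5 ± 1.2% in dark vehicle larvae and 9.54 ± 1.5% in cycle vehicle larvae, while that of cyp2v1 was 5.97 ± 0.54% in darkness and 14.0 ± 2.9% under the cycle. The share of cyp2p10 was 1.72 ± 0.43% in dark vehicle larvae and 8.16 ± 1.4% in cycle vehicle larvae.

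By FPKM, a per-length scale, the order of levels in dark vehicle larvae was cyp2ad3, cyp2ad2, cyp2n13, cyp2p8, cyp2v1, cyp2p6, cyp2ad6, cyp2p9, cyp2p7 and cyp2p10. In that order the ranges of neighbours were apart between cyp2ad3 and cyp2ad2, between cyp2p8 and cyp2v1 and between cyp2v1 and cyp2p6, and overlapped elsewhere. In cycle vehicle larvae the order was cyp2ad3, cyp2p8, cyp2v1, cyp2n13, cyp2ad2, cyp2p10, cyp2p9, cyp2p6, cyp2ad6 and cyp2p7. There the ranges were apart between cyp2ad3 and cyp2p8, between cyp2p10 and cyp2p9, between cyp2p6 and cyp2ad6 and between cyp2ad6 and cyp2p7. Thus cyp2p10 was the lowest of the members in dark vehicle larvae, overlapping cyp2p7, and stood above 4 of them in cycle vehicle larvae.

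**Figure D3:**
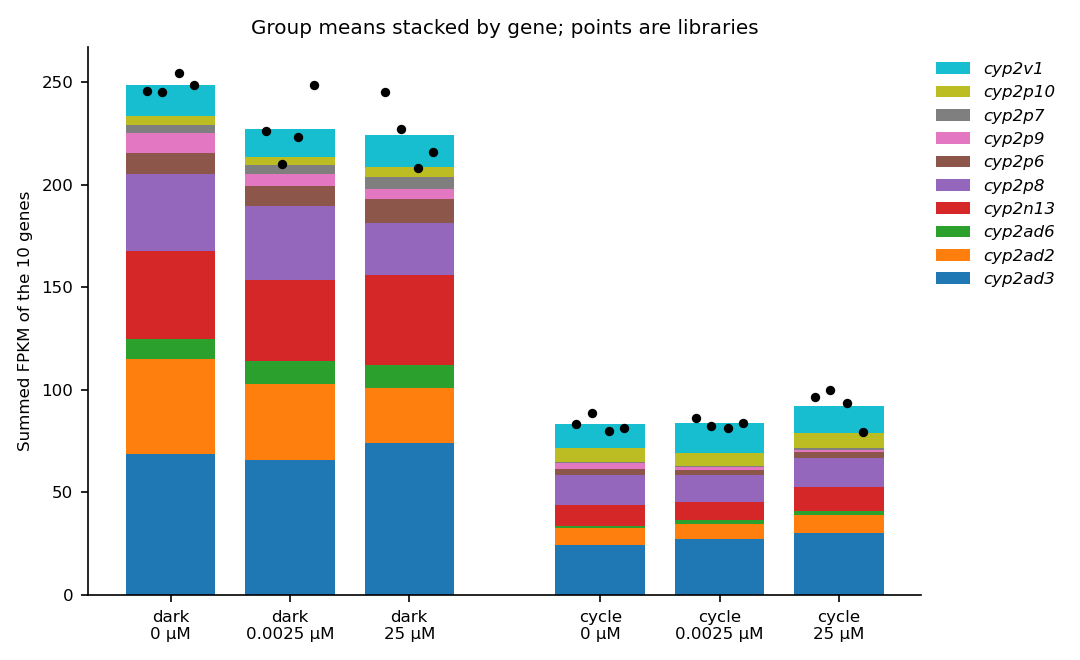
Summed FPKM of the 10 genes in each group, with bars stacked from the group means of the genes and points for the sums of single libraries (n = 4). The dark groups have mean sums of 224.1 to 248.5 and the cycle groups of 83.4 to 92.3, and the lowest dark library (208.3) lies above the highest cycle library (99.9).

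The cluster was compared with its chromosomal neighbours and with the rest of its gene family under the same contrast. Of 13 other genes within 50 kb, 11 were tested and 2 were higher in darkness: pfas, an enzyme of purine synthesis, by 1.02 ± 0.11 on the log2 scale (limma adjusted p = 7.03e-07), and ppat, which opens that pathway, by 0.47 ± 0.12 (adjusted p = 0.0104). The flanking hook1 differed by -0.05 ± 0.13 (adjusted p = 0.836). The gene cyp2j20, which overlaps cyp2p7, differed by -0.43 ± 0.37 (adjusted p = 0.443). Of 28 tested CYP2 genes outside the 10, 3 were higher in darkness and 2 were lower, with a median log2 difference of 0.17. The counts of neighbours and CYP2 genes, and of markers below, are read only beside the shares of all genes tested. Those shares were 20.1% passed, 9.24% higher and 10.8% lower.

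Markers of other tissues differed between the vehicle groups too. Of 8 enterocyte markers 5 passed as higher in darkness and none as lower. The 5 included fabp2, an intestinal fatty acid carrier, by 2.30 ± 0.32 on the log2 scale (limma adjusted p = 2.14e-05). They also included vil1, a brush border protein, by 1.34 ± 0.15 (limma adjusted p = 1.31e-06). The 3 that did not pass had lower means in darkness. These were apoa4b.1 (240.7 FPKM, against 278.4 under the cycle), chia.2 (287.0 against 343.4) and cdx1b (3.02 against 3.62). The summed enterocyte level overlapped, at 729.0 to 816.5 FPKM in dark vehicle libraries and 659.7 to 842.5 in cycle vehicle libraries. Of 8 markers of the pronephric tubule 2 were higher, and their sum was 260.6 to 314.8 FPKM in dark vehicle libraries and 195.3 to 255.1 in cycle vehicle libraries. Of 12 hepatocyte markers 1 was lower, with sums of 3855 to 4087 FPKM in darkness and 3870 to 4928 under the cycle. None of the markers in these 3 lists was listed at 0 in either group. Of 4 tested markers of the exocrine pancreas 3 were lower in darkness (cpa5 at -0.81 ± 0.14 on the log2 scale, limma adjusted p = 0.000401), and the sum of all 5 was 3881 to 4550 FPKM in dark vehicle libraries and 5773 to 6616 in cycle vehicle libraries. Of 4 skeletal muscle markers 2 were lower and 1 was higher. Their sum was 15390 to 16260 FPKM in dark vehicle libraries and 17510 to 20710 in cycle vehicle libraries. Most of that sum was actc1b, which was lower in darkness (means 14630 FPKM in darkness and 17840 under the cycle), while ckma was higher (719.7 and 412.9 FPKM). The other lower marker, mylpfa, was listed at 0 in darkness and averaged only 1.12 ± 0.736 FPKM under the cycle (SD). Of 4 neuronal markers 1 was higher (sums 553.4 to 582.7 FPKM in darkness and 492.2 to 542.0 under the cycle). The epidermal markers krt4 and cyt1 gave 0.79 ± 0.58 (limma adjusted p = 0.363) and 0.78 ± 0.30 (adjusted p = 0.0672), and the sums of that list were 1855 to 2825 FPKM in dark vehicle libraries and 924.6 to 1785 in cycle vehicle libraries. Erythroid sums overlapped, at 164.8 to 268.1 FPKM in darkness and 90.8 to 568.5 under the cycle. The sums of the pronephric, pancreatic, muscle, neuronal and epidermal lists thus did not overlap between the vehicle groups. Such sums mostly reflect the most abundant genes, as prss1 in the pancreatic list (means 3147 FPKM in darkness and 4285 under the cycle). In the pronephric list that gene was atp1a1a.4 (178.5 and 145.2 FPKM). Of 3 tested epidermal markers none passed. In whole larvae, more cells of a type and more RNA per cell cannot be told apart, and the part of these tissues in the members' difference was not tested.

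The effect of 25 µM PFHxS was tested within each photoperiod. In darkness cyp2p8, cyp2ad2 and cyp2p9 fell and the other 7 genes did not pass (limma, adjusted p under 0.05). Of all 19058 genes tested in darkness, 21.8% passed and 9.60% passed as lower, and a count of 3 of 10 is read only beside these shares. The median log2 fold change of the members was 0.08, against -0.01 over all genes tested.

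The fall of cyp2p8 was the tightest. It had 30.4, 23.4, 22.8 and 25.0 FPKM at 25 µM in darkness, against 35.8, 41.6, 37.5 and 35.1 in dark vehicle libraries. Every exposed library was below every vehicle library, and the log2 fold change was -0.57 ± 0.093 (SE, limma adjusted p = 0.000966). At 0.0025 µM its mean was 36.1 ± 1.82 FPKM (SD, n = 4), against 37.5 ± 2.91 FPKM in vehicle larvae.

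The fall of cyp2ad2 was larger and more variable. It had 42.8, 25.6, 14.1 and 23.8 FPKM at 25 µM in darkness, against 46.4, 43.3, 44.4 and 49.6 in dark vehicle libraries. All exposed libraries were below the vehicle libraries, one of them only just, and the log2 fold change was -0.89 ± 0.23 (SE, limma adjusted p = 0.0153). At 0.0025 µM the values were 34.8, 35.9, 38.6 and 39.3 FPKM, also all below the vehicle libraries, but this difference did not pass (log2 fold change -0.31 ± 0.23, limma adjusted p = 0.827). Groups apart in this way were found in 2 of 10 members at 25 µM, against 11.8% of all genes tested, and in 1 of 10 at 0.0025 µM, against 2.36%.

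The epidermal and neuronal markers were also lower in sum at 25 µM in darkness. The epidermal sum (krt4, krt5, cyt1 and epcam, the last listed at 0 in both groups) was 1762, 774, 870.6 and 1234 FPKM at 25 µM, against 2488, 1889, 1855 and 2825 FPKM in vehicle larvae, both in replicate order. Of 3 epidermal markers tested, cyt1 fell, by 0.98 on the log2 scale (SE 0.23, limma adjusted p = 0.00983). The neuronal sum was 447.5 to 530.8 FPKM at 25 µM, against 553.4 to 582.7 in vehicle larvae, and 2 of 4 neuronal markers fell. The exposed library with the lowest cyp2ad2, replicate 3, also had the lowest sum of hepatocyte markers in its group, 2905 FPKM. Replicate 1, with the highest cyp2ad2, had the highest hepatocyte sum, 4292 FPKM. Replicate 3 was also lowest for enterocyte (651.5 FPKM), exocrine pancreas (2934), erythroid (147.2), skeletal muscle (14370) and neuronal (447.5) markers, though not for pronephric or epidermal ones. Replicate 1 was also highest for exocrine pancreas (4310 FPKM), erythroid (318.6), skeletal muscle (16050), pronephric (275.6) and epidermal (1762) markers, though not for enterocyte or neuronal ones. In the dark vehicle libraries the hepatocyte sum was 3855 to 4087 FPKM. At 25 µM in darkness, where 21.8% of all genes tested passed, the hepatocyte list had 4 rises and 4 falls among 12 genes. In the enterocyte list 1 of 8 fell (vil1) and in the pronephric list 2 of 8 fell. The part of these tissues in the fall of cyp2ad2 was not tested.

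For cyp2p9 the values were 3.74, 4.18, 5.31 and 5.88 FPKM at 25 µM in darkness, against 14.7, 5.15, 8.11 and 9.40 in dark vehicle libraries. The groups overlapped through the lowest vehicle library. The log2 fold change was -0.88 ± 0.25 (SE, limma adjusted p = 0.0242). This call was lost in 5 of 20 alternatives, with adjusted p-values from 0.00344 to 0.143: when all 24 libraries shared the fit (log2 fold change -0.88, adjusted p = 0.143), without vehicle replicate 1 (-0.63) or 4 (-0.84), and without exposed replicate 1 (-0.77) or 2 (-0.82). Over all 20 alternatives the fold change was -1.13 to -0.63.

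The other 7 genes in darkness gave log2 fold changes from 0.04 for cyp2n13 to 0.51 for cyp2p7 at 25 µM. The values of cyp2p7 were 8.37, 5.42, 4.64 and 6.19 FPKM at 25 µM, against 2.76, 5.31, 4.90 and 4.34 FPKM in dark vehicle libraries, which overlap (0.51 ± 0.27, limma adjusted p = 0.216). The most abundant member, cyp2ad3, averaged 74.3 ± 4.08 FPKM at 25 µM and 68.9 ± 3.35 FPKM in dark vehicle larvae (SD, n = 4 each), with a 95% interval of the log2 fold change from -0.08 to 0.30. The summed FPKM of the 10 genes in darkness was 248.5 ± 4.2 in vehicle larvae, 227.1 ± 16.1 at 0.0025 µM and 224.1 ± 16.0 at 25 µM (SD, n = 4 each).

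**Figure D4:**
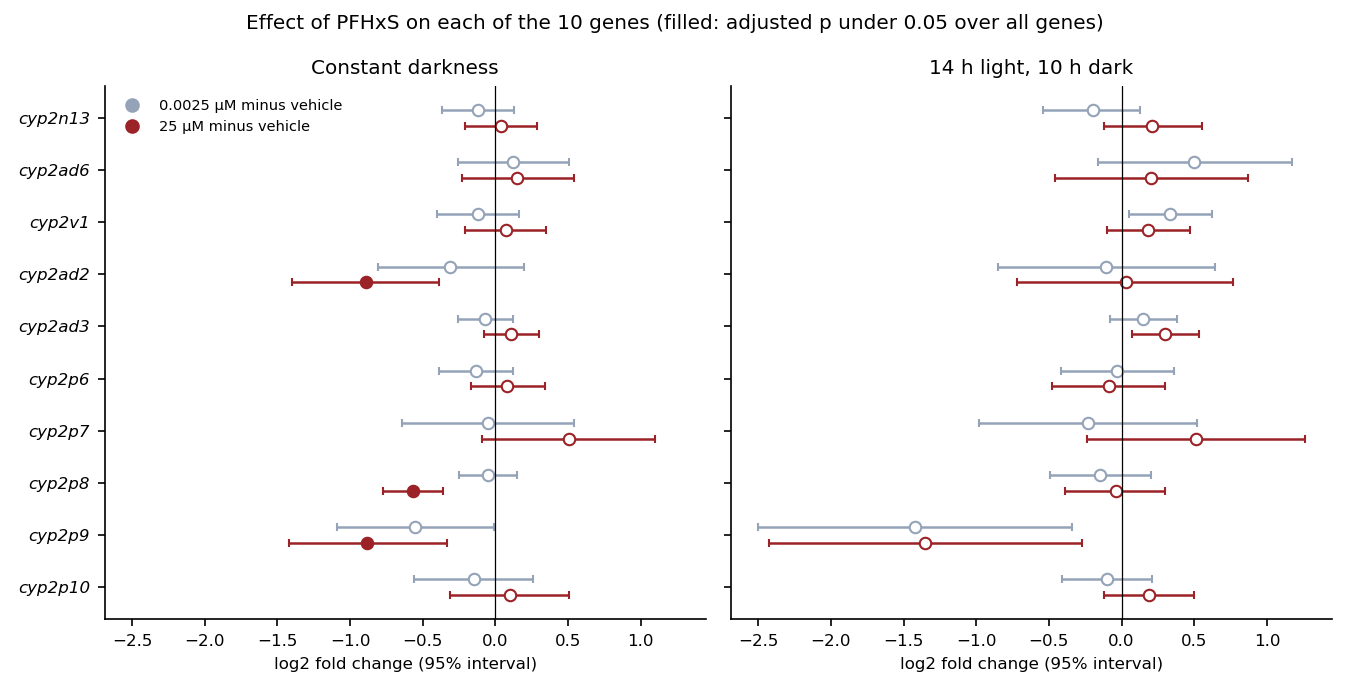
Log2 fold change of each of the 10 genes at 0.0025 and at 25 µM PFHxS relative to vehicle, with 95% intervals, in constant darkness (left) and under the light-dark cycle (right). Filled points passed an adjusted p of 0.05 over all genes tested: cyp2ad2, cyp2p8 and cyp2p9 at 25 µM in darkness.

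Under the light-dark cycle no member passed at 25 µM with limma or with limma-voom on the recovered fragments, and 2 had an unadjusted p under 0.05 in each. Of all 18917 genes tested under the cycle, 1.73% passed and 3050 had an unadjusted p under 0.05 in limma. The count of 2 of 10 members is read only beside that number. The first of those 2 was cyp2p9, at 0.790, 1.21, 0.716 and 1.68 FPKM at 25 µM, against 3.87, 2.79, 4.47 and 1.26 FPKM in cycle vehicle libraries. One vehicle library lay among the exposed ones, and the log2 fold change was -1.35 ± 0.50 (SE, limma adjusted p = 0.199). These values rested on 21 to 51 fragments at 25 µM and 52 to 136 in vehicle larvae. The second was cyp2ad3, at 28.6, 34.2, 27.3 and 30.3 FPKM at 25 µM, against 24.3, 29.0, 23.6 and 21.0 FPKM in cycle vehicle libraries (0.30 ± 0.11, adjusted p = 0.178).

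The genes that fell in darkness at the high dose behaved as follows under the cycle. For cyp2p8 the values were 18.2, 15.7, 13.3 and 10.8 FPKM at 25 µM, against 11.6, 17.2, 14.3 and 16.0 in cycle vehicle libraries. The groups overlapped throughout, with a 95% interval of the log2 fold change from -0.39 to 0.30. For cyp2ad2 they were 11.8, 10.0, 10.9 and 3.19 FPKM at 25 µM, against 7.47, 8.54, 6.43 and 9.42 in cycle vehicle libraries. Of the exposed libraries 3 were above all vehicle libraries and replicate 4 was below all of them, which left an interval from -0.72 to 0.77. That replicate also had the lowest sums of its group for hepatocyte markers (2797 FPKM, with 3845 to 4977 in the other libraries) and epidermal markers (510.6 FPKM, with 1472 to 1662 in the others). It was lowest for exocrine pancreas (4250 FPKM), skeletal muscle (14210), enterocyte (656.6), pronephric (199.9) and neuronal (466.0) markers too, though not for erythroid ones. The part of these tissues in its cyp2ad2 value was not tested.

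Whether the 25 µM effect differed between photoperiods was tested as the difference of the log2 fold changes, darkness minus cycle, in which an offset of a gene between the library series cancels. No member passed in limma or in limma-voom, and 1.16% of all 20145 genes tested passed in limma. In each method 2 members had an unadjusted p under 0.05, which 2679 of all genes tested had in limma, and the count is read only beside that number. The largest differences were -0.92 ± 0.44 for cyp2ad2 (SE, limma adjusted p = 0.371) and -0.52 ± 0.19 for cyp2p8 (adjusted p = 0.199). Without replicate 4 of the 25 µM cycle group both passed, with differences of -1.36 for cyp2ad2 (adjusted p = 0.0255) and -0.66 for cyp2p8 (adjusted p = 0.0449), while adjusted p-values over 32 alternatives ran up to 0.627 and 0.386 for these genes. With all libraries in, a difference between photoperiods was not shown for either gene.

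At 0.0025 µM no member passed in darkness or under the cycle, in limma or limma-voom. The background was 0.0210% of genes in darkness and 0.00% under the cycle, where none of 18917 genes passed in either method and 1029 had an unadjusted p under 0.05 in limma (1316 in limma-voom). In darkness 1417 of all 19058 genes tested had an unadjusted p under 0.05 in limma, and the counts of members are read only beside these numbers. In darkness 1 member had an unadjusted p under 0.05 in each method, in limma cyp2p9 (-0.55 ± 0.25, adjusted p = 0.670). Under the cycle 2 did, in limma cyp2p9 (-1.42 ± 0.50, adjusted p = 0.882) and cyp2v1 (0.33 ± 0.13, adjusted p = 0.882). For cyp2v1 under the cycle the values were 15.4, 13.8, 14.9 and 13.8 FPKM at 0.0025 µM, against 13.4, 8.67, 12.9 and 11.5 in vehicle larvae. All 4 low-dose libraries were above the vehicle libraries, a pattern found in 1 of 10 members and in 1.33% of all genes tested. For cyp2p9 under the cycle they were 0.754, 0.471, 0.890 and 2.80 FPKM at 0.0025 µM, from 19 to 75 fragments, and overlapped the vehicle libraries. The difference between photoperiods in the 0.0025 µM effect passed for none of the 10 in limma or limma-voom, against 0.00496% of all genes tested in limma. In each method 1 member had an unadjusted p under 0.05, in limma cyp2v1 (-0.45 ± 0.19, adjusted p = 0.572). Of all 20145 genes tested, 1608 had an unadjusted p under 0.05 in limma, and that 1 of 10 is read only beside this number.

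Values of cyp2p9, cyp2ad2 and cyp2p7 varied most across the dose groups once each table was centred on its own mean, with ranges of the group means of 1.42, 0.89 and 0.74 on the log2 scale. The genes nearest to each were found among 16138 genes by the mean absolute difference of centred log2 values over 24 libraries. The nearest genes lie below the median distance by construction, so the medians give only the scale, and a link between such genes was not tested. For cyp2ad2 they were si_ch211-113d11.5 (0.186), krt91 (0.192) and zgc_113054 (0.205), with a median of 0.429 over all genes. The second of these, krt91, is a keratin, and averaged 859.4 FPKM at 25 µM and 1493 in vehicle larvae in darkness. Under the cycle krt91 averaged 2062 FPKM at 25 µM and 2284 in vehicle larvae, above its dark levels. There cyp2ad2, at 8.995 and 7.966 FPKM, was below its dark levels, a difference that the centring removes. For cyp2p9 the nearest were zbtb2b (0.378), zgc_171599 (0.435) and gnaia (0.438), with a median of 0.651 over all genes. For cyp2p7 they were prelid3a (0.244), trdmt1 (0.266) and sec61a1l (0.267), with a median of 0.439.

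Genes that supply P450 enzymes with electrons and haem gave the following counts. These counts, and those of the lists below, are read only beside the shares of all genes tested that passed. The shares were 20.1% for darkness against cycle, 21.8% at 25 µM in darkness and 1.73% at 25 µM under the cycle. In vehicle larvae 7 of 22 were higher in darkness and 1 was lower (median log2 difference 0.40). The enzyme alas1, which starts haem synthesis outside red cells, averaged 333.8 ± 28.8 FPKM in darkness and 126.8 ± 22.6 under the cycle (SD, n = 4 each; log2 difference 1.41 ± 0.15, limma adjusted p = 5.72e-07). The oxidoreductase gene porb was higher by 1.06 ± 0.085 (adjusted p = 8.27e-09). The 1 lower gene was hmox1a, with a log2 difference of -1.04 ± 0.21 (limma adjusted p = 0.0012) and means of 12.8 FPKM in darkness and 26.3 under the cycle. At 25 µM in darkness 4 of 22 rose and 2 fell, with porb at 0.94 ± 0.088 (adjusted p = 1.85e-05) and pora at 0.84 ± 0.094 (adjusted p = 6.95e-05), and under the cycle 1 of 22 rose, porb at 0.95 ± 0.084 (adjusted p = 0.000271). Thus porb rose at 25 µM in darkness, where cyp2p8, cyp2ad2 and cyp2p9 fell.

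In the list of receptors and transcription factors that act on CYP2 genes in vertebrates, 10 of 39 were higher in dark vehicle larvae and 4 were lower (median log2 difference 0.14). The bZIP factors dbpa and dbpb, whose relatives in mouse liver drive several P450 genes, were higher by 2.83 ± 0.12 (limma adjusted p = 1.73e-13) and 2.76 ± 0.13 (adjusted p = 1.14e-12). At 25 µM in darkness 8 of 38 rose and 1 fell, where 21.8% of all genes tested passed. The rises included nr1i2, the pregnane X receptor, by 1.12 ± 0.13 (limma adjusted p = 9.79e-05) and cebpb, by 1.57 ± 0.16 (adjusted p = 3.13e-05). Under the cycle 1 of 38 rose, nr1h5, a relative of the bile acid receptor, by 0.94 ± 0.21 (adjusted p = 0.0439).

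Enzymes of eicosanoid metabolism, the pathway in which CYP2J2 acts in humans, gave 2 higher and 5 lower of 26 tested in dark vehicle larvae (median log2 difference -0.16). The prostaglandin D synthase gene ptgdsb.1 averaged 46.4 ± 9.01 FPKM in darkness and 431.3 ± 86.4 under the cycle (SD, n = 4 each; log2 difference -3.21 ± 0.20, limma adjusted p = 1.26e-10). The epoxide hydrolase gene ephx5 was higher in darkness by 0.84 ± 0.22 (adjusted p = 0.00884) and fell at 25 µM in darkness by 0.96 on the log2 scale (SE 0.22, adjusted p = 0.00811). At 25 µM in darkness 4 of 24 rose and 2 fell, where 21.8% of all genes tested passed. The cyclooxygenase genes ptgs2a, at 1.22 ± 0.15 (limma adjusted p = 0.000102), and ptgs2b, at 1.24 ± 0.18 (adjusted p = 0.000366), were among the rises. Under the cycle none of 25 tested passed at 25 µM. The most abundant gene of the list, ptgdsb.1, gave -0.47 ± 0.20 there (limma adjusted p = 0.268).

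Conjugation and transport genes gave 11 higher and 5 lower of 37 in dark vehicle larvae (median log2 difference 0.36), among them the sulfotransferase gene sult1st2 by 3.11 ± 0.25 (limma adjusted p = 8.67e-09). At 25 µM 5 of 37 rose and 10 fell in darkness, and 2 of 36 rose and 2 fell under the cycle.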

How the data were processed

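The submitters' processing notes name HISAT2 2.0.5 (alignment) and featureCounts 1.5.0-p3 (counting); genome build and strand setting: not given in the sources used here. The authors deposited FPKM per gene in 2 tables of 12 libraries, 1 per photoperiod. FPKM times gene length gave whole multiples of 1 step in each library for 100% of values (tolerance 0.001), so fragments per gene could be recovered. Values were analysed as log2(FPKM + 0.1), which understates changes of low genes, in R 4.3.3 with limma 3.58.1 (moderated, intensity trend). Genes needed 0.5 FPKM in 4 libraries; p-values were adjusted by Benjamini-Hochberg over all genes tested (threshold 0.05). Dose effects were fitted on the 12 libraries of a photoperiod, and contrasts across photoperiods on all 24. The members, lists and naming rule (all members; up to 4 genes of a list by smallest adjusted p) were chosen with earlier results of these data known. Scripts were tested on simulated data. Alternatives covered the test (limma-voom), pseudocount, filters, scaling, replicate block, libraries in the fit and leaving out each library. Sequences were not used here.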

Additional observations from a re-analysis of the deposited data

Results flagged for a closer look

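Within each of 60 groups of 4 libraries (10 genes in 6 groups), the highest and lowest values were compared with the rest by Dixon's ratio, and 3 groups held a library that stood apart; chance flags about 1 group in 20. In the 25 µM dark group, replicate 4 had 6.24 FPKM of cyp2p10, above 3.94 to 4.12 FPKM in the other libraries. In the 25 µM cycle group, replicate 4 had 2.82 FPKM of cyp2ad6, above 1.16 to 1.39 FPKM in the others. In the 0.0025 µM cycle group, replicate 4 had 5.19 FPKM of cyp2ad2, below 8.11 to 8.23 FPKM in the others.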

How the results depend on the processing

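Counts of members that passed moved by 1 at most, with 1 exception: leaving out replicate 4 of the 25 µM cycle group gave 2 rather than 0 for the difference between photoperiods in the 25 µM effect. At 25 µM in darkness the count was 2 rather than 3 with all 24 libraries in the fit, and for darkness against cycle it was 10 rather than 9 with a filter at a mean of 50 fragments, total-fragment scaling or median-of-ratios scaling. For the dose effects under the cycle, the filter at a mean of 50 fragments left cyp2p7 and cyp2ad6 untested, so neither could be counted there. Leaving out 1 library at a time gave 2 to 3 members at 25 µM in darkness, 9 to 10 for darkness against cycle, 0 to 2 for that difference and 0 elsewhere. The replicate block left the counts at 3 at 25 µM in darkness, 9 for darkness against cycle and 0 elsewhere. Deviations of same-numbered libraries from their group means correlated at -0.136 to 0.032 over all genes tested. Differently numbered libraries were not compared in this way, so whether same-numbered libraries share an origin was not tested. Over all genes, calls at 25 µM under the cycle numbered 328, with 162 under the block and 671 with all 24 libraries in the fit, and at 0.0025 µM in darkness 4, with 0 to 5 elsewhere. Scaling by median-of-ratios over all libraries of a fit was chosen after seeing the data.

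Small estimates that did not pass changed sign in 19 results, and the cause was not tested. Scaling to total fragments gave 0.00 for cyp2p8 at 25 µM under the cycle and 0.01 for cyp2p6 at 0.0025 µM under the cycle. Limma-voom gave -0.02 for cyp2ad2 at 25 µM under the cycle and 0.02 for cyp2p7 in the difference between photoperiods at 25 µM; a pseudocount of 1 gave 0.19 for cyp2p7 and 0.00 for cyp2ad6 in that difference. Leaving out 1 library gave, at 25 µM in darkness, -0.01 to 0.10 for cyp2n13, -0.03 to 0.16 for cyp2p6, -0.05 to 0.22 for cyp2p10 and 0.00 to 0.12 for cyp2v1. At 25 µM under the cycle it gave -0.17 to 0.05 for cyp2p6, -0.16 to 0.09 for cyp2p8, -0.16 to 0.46 for cyp2ad2 and -0.07 to 0.34 for cyp2ad6. At 0.0025 µM it gave -0.24 to 0.20 for cyp2p7 and -0.15 to 0.01 for cyp2ad3 in darkness, and -0.10 to 0.07 for cyp2p6 and -0.21 to 0.05 for cyp2ad2 under the cycle. In the difference between photoperiods it gave -0.21 to 0.17 for cyp2p7, -0.24 to 0.03 for cyp2p10, -0.18 to 0.22 for cyp2ad6 and -0.19 to 0.02 for cyp2v1 at 25 µM, and -0.03 to 0.17 for cyp2n13, -0.04 to 0.42 for cyp2p7 and -0.17 to 0.08 for cyp2p10 at 0.0025 µM. Under the cycle, single values of cyp2p7, cyp2ad6 and cyp2p9 rested on as few as 6, 16 and 19 fragments; the part of depth in their spread was not tested.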
